A study of Mus musculus with 69 samples.

Results

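Sox9, Sox10, Foxd3, Tfap2a, Tfap2b, Pax3, Pax7 and Snai2 are transcription factor genes of the neural crest and the dorsal neural tube. They were taken by name from the gene symbols of one bulk RNA sequencing count table, and all 8 were found among its 55367 symbols. Bulk RNA was sequenced from mouse embryonic stem (mES) cells and from cells sorted out of mosaic gastruloids, which are aggregates of mES cells that develop some of the tissues of the early embryo. The study asked how p53-deficient cells affect wild-type (WT) neighbours. Here the question was when these 8 genes came on in each sorted population, and whether their levels differed by genotype, by neighbour or between WT clones.

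All cells were E14tg2A mES clones, each of them a single clone. WT–mCherry cells carry an H2B–mCherry reporter driven by EF1α, and WT–emiRFP cells carry an H2B–emiRFP670 reporter driven by CAG. p53KO–emiRFP cells were derived from the WT–emiRFP clone by a homozygous frameshift in Trp53 and were selected with Nutlin-3a. WT + WT gastruloids were seeded with 150 WT–mCherry and 150 WT–emiRFP cells, and WT + p53KO gastruloids with 150 WT–mCherry and 25 p53KO–emiRFP cells. All gastruloids received the Wnt agonist CHIR99021 from 48 to 72 h. The 23 conditions were the 3 clones as mES cells in serum and LIF (0 h) and, at 48, 72, 96, 120 and 144 h, the 4 populations separated by fluorescence-activated sorting. Each had 3 replicates from separate experiments, which makes 69 libraries, and each experiment with gastruloids used several of them. The study did not check the purity of the sorted cells after sorting.

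The neural crest arises at the border of the neural plate, leaves the dorsal neural tube by an epithelial-to-mesenchymal transition and forms peripheral neurons, glia, melanocytes and part of the head skeleton. Pax3, Pax7 and the AP-2 factors Tfap2a and Tfap2b act at the border, Snai2, Sox9 and Foxd3 are turned on as crest cells are specified, and Sox10 marks migrating crest and its glial and melanocyte derivatives. Few of these genes are specific to the crest. Pax3 and Pax7 are also expressed in the dermomyotome of the somites, Sox9 in the sclerotome and cartilage, Snai2 in mesenchyme, Tfap2a in surface ectoderm, and Foxd3 in pluripotent cells.

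The total counts of the libraries ranged from 26722541 to 72981570 (median 53098728). Normalized counts are counts divided by a size factor for depth, and groups are given as mean ± SD of n = 3 replicates. Trp53, the targeted gene, was on average between 8.33% and 11.4% of the WT–emiRFP level in p53KO–emiRFP cells, over 0 to 144 h. Differences are log2 fold changes with standard errors (SE) from edgeR's quasi-likelihood test, with Benjamini-Hochberg adjusted p values over every gene tested and a threshold of 0.05. Libraries of the same replicate number deviated together in most comparisons, and where a block on that number changed a call, the adjusted p under the block is given as well. In bulk samples, fewer cells of a type and less RNA per cell cannot be told apart.

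Sox10 and Foxd3, the usual markers of crest identity, stayed low. Foxd3, a single-exon gene on the plus strand (ENSMUSG00000067261.4, GRCm38 chr4:99656299-99658622), had 0 to 2 counts in every library and 11 counts in all 69. Those counts lay in 9 libraries, 2 of mES cells, 6 of 48 h and 1 of 144 h. A count of 0 allows up to 3 counts, which is 2.31 to 6.2 normalized counts at the depths of these libraries, and since no library had more than 2 counts of Foxd3, no fold change is given for it. The counts were as low in mES cells, and the part of the authors' annotation or counting in this was not tested. Sox10, an SRY-box factor gene on the minus strand (ENSMUSG00000033006.10, chr15:79154908-79165240), had 9 to 70 counts in each library. Its median over the 9 mES cell libraries was 37.2 normalized counts, and its median over the 12 libraries of a time was highest at 48 h (55.9) and lowest at 120 h (25.8). At 144 h its 12 libraries ran from 16.4 to 52.6. The WT populations rose between 0 and 48 h (log2 fold change 0.84, SE 0.21, edgeR adjusted p = 0.000276) and fell between 48 and 72 h (−0.53, SE 0.17, adjusted p = 0.00605), but the fall was lost without replicate 3 (adjusted p = 0.151). Later changes in WT cells did not pass the test. In each of the 4 populations the Sox10 means at 120 and 144 h, when Pax3 and Pax7 were above their levels at 48 h, were below its mean at 48 h.

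Tfap2b was the last of the 8 genes to come on. It encodes an AP-2 factor and lies on the plus strand (ENSMUSG00000025927.13, chr1:19208914-19238576). Until 96 h no library had more than 9.99 normalized counts, and at 120 h the 12 libraries ran from 1.58 to 20.8. At 144 h they ran from 35.0 to 342. In WT cells it rose between 120 and 144 h by 4.45 on the log2 scale (SE 0.22, edgeR adjusted p = 1.71e-24), and in p53KO–emiRFP cells by 2.81 (SE 0.35, adjusted p = 4e-09). Values given for WT cells between times average the 3 sorted WT populations, which were unlike over this step. Tfap2b went from 6.41 ± 1.30 to 326 ± 27.6 normalized counts in the WT–mCherry cells of WT + WT gastruloids, from 4.78 ± 2.30 to 119 ± 17.0 in the WT–emiRFP clone, and from 5.48 ± 5.46 to 46.3 ± 11.0 in the WT–mCherry cells of WT + p53KO gastruloids.

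The 250 bases upstream of a RefSeq start are shown for Tfap2b, because it came on last, and for Foxd3, because it had the fewest counts (RefSeq, GRCm38.p6, plus strand, 5′ to 3′). The Tfap2b window lies inside the Gencode span of the gene, downstream of its start at 19208914. Capitals mark matches on either strand to 4 short motifs, which are TAAT (the core of homeodomain sites), ACAAT (the core of SOX sites), CAGGTG (a Snail-type E-box) and GCCNNNGGC (an AP-2 site).
Tfap2b, chr1:19211804-19212053: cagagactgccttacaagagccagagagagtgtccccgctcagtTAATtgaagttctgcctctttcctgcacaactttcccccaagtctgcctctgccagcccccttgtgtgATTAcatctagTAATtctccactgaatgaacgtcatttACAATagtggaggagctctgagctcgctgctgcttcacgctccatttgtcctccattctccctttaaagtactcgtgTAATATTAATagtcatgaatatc
Foxd3, chr4:99656049-99656298: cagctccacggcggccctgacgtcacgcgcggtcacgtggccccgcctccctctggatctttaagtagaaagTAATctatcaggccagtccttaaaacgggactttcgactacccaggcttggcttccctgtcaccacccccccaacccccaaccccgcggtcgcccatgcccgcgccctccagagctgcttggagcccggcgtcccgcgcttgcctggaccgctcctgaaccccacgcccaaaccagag
The Tfap2b window held 6 matches to TAAT and 1 to ACAAT, and the Foxd3 window held 1 match to TAAT. Some of these matches overlap or touch each other. Neither held CAGGTG or GCCNNNGGC. Of all 32851 windows of this length, 54.9% held TAAT, 27.7% ACAAT, 17.2% CAGGTG and 13.7% GCCNNNGGC. The Tfap2b window was 46.4% G and C and the Foxd3 window 65.6%, against a median of 52.4% over all windows. A match describes the letters of a window only. Windows were available for 4 of the 8 genes, and only those of Tfap2b and Foxd3 are shown.

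Pax3, a paired-box factor of the dorsal neural tube and the dermomyotome, showed the largest step between times in the fit. It lies on the minus strand (ENSMUSG00000004872.15, chr1:78101267-78197134). At 48 h its population means were between 3.38 and 9.88 normalized counts, at 96 h between 70.9 and 125, and at 120 h between 1954 and 2474. The rise from 96 to 120 h was 4.67 on the log2 scale in WT cells (SE 0.14, edgeR adjusted p = 2.09e-34) and 4.05 in p53KO–emiRFP cells (SE 0.24, adjusted p = 1.08e-20). The populations then parted, and from 120 to 144 h the difference of p53KO–emiRFP from WT–emiRFP cells changed by 2.59 (SE 0.28, adjusted p = 3.92e-10). In WT cells Pax3 fell by 1.25 between 120 and 144 h (SE 0.12, adjusted p = 8.73e-14). The means went from 2474 ± 619 to 1631 ± 499 in WT–mCherry cells of WT + WT gastruloids, from 2297 ± 584 to 632 ± 191 in the WT–emiRFP clone, and from 2421 ± 395 to 991.5 ± 362 in the WT–mCherry cells of WT + p53KO gastruloids. In p53KO–emiRFP cells it rose by 0.73 (SE 0.20, adjusted p = 0.00367), which was lost without replicate 1 (adjusted p = 0.203).

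Pax7, the paralogue of Pax3, had a different course. It lies on the minus strand (ENSMUSG00000028736.13, chr4:139737062-139833528). mES cells had 17.3 ± 3.73 (p53KO–emiRFP) to 34.1 ± 8.52 (WT–mCherry) normalized counts, and WT cells had less at 48 h (−1.12, SE 0.23, edgeR adjusted p = 1.48e-05). Between 72 and 96 h it rose 13.4-fold in WT cells (log2 3.75, SE 0.17, adjusted p = 8.13e-27) and 10.9-fold in p53KO–emiRFP cells (3.44, SE 0.31, adjusted p = 7.19e-14). It rose again in WT cells to 120 h (0.84, SE 0.11, adjusted p = 2.07e-09) and to 144 h (1.34, SE 0.10, adjusted p = 7.03e-17), where Pax3 fell. Over the last step the means went from 275 ± 47.1 to 1194 ± 259 in WT–mCherry cells of WT + WT gastruloids, but from 227 ± 20.5 to 431 ± 125.5 in the WT–emiRFP clone, and from 235 ± 28.2 to 465 ± 141 in the WT–mCherry cells of WT + p53KO gastruloids. In p53KO–emiRFP cells the steps to 120 and 144 h were 1.93 (SE 0.19, adjusted p = 2.81e-12) and 1.39 (SE 0.17, adjusted p = 4.45e-09).

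Sox9, an SRY-box factor of premigratory crest and of cartilage, came on earlier than the paired-box genes. It lies on the plus strand (ENSMUSG00000000567.5, chr11:112782224-112787760). mES cells had 1.05 to 11.7 normalized counts. In WT cells it rose at 48 h (2.79, SE 0.29, edgeR adjusted p = 1.71e-12), at 72 h (1.2, SE 0.14, adjusted p = 5.47e-11) and most at 96 h (3.19, SE 0.10, adjusted p = 1.29e-34), to means between 422 and 502. In p53KO–emiRFP cells it rose at 48 h (3.23, SE 0.32, adjusted p = 3.9e-13) and at 96 h (3.69, SE 0.18, adjusted p = 1.37e-24). At 72 h it fell there (−0.57, SE 0.22, adjusted p = 0.0287, 0.116 without replicate 1 and 0.112 without replicate 3). Between 96 and 120 h it fell in WT cells by 0.92 (SE 0.08, adjusted p = 1.78e-14), and then rose again by 1.43 to 144 h (SE 0.08, adjusted p = 1.06e-21). The WT populations were unlike over the last step. The means at 120 and 144 h were 236 ± 19.0 and 1311 ± 113 normalized counts in WT–mCherry cells of WT + WT gastruloids, 189.7 ± 24.1 and 536 ± 65.1 in WT–emiRFP cells, and 326 ± 63.9 and 408 ± 73.6 in the WT–mCherry cells of WT + p53KO gastruloids, where the libraries of both times overlapped. p53KO–emiRFP cells did not share the fall between 96 and 120 h. The change in their difference from WT–emiRFP cells over that step passed the test (1.77, SE 0.20, adjusted p = 2.57e-10). Their Sox9 rose by 0.49 between 96 and 120 h (SE 0.14, adjusted p = 0.00329, lost without replicate 3 with adjusted p = 0.0575) and by 0.50 to 144 h (SE 0.13, adjusted p = 0.00395, lost without replicate 1 with adjusted p = 0.108).

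In WT cells the steps of Snai2 and Tfap2a were at most 1.69 in size. Snai2, a zinc-finger repressor of transcription that promotes the epithelial-to-mesenchymal transition, on the plus strand (ENSMUSG00000022676.7, chr16:14705852-14709385), had 25.7 ± 10.1 to 53.6 ± 14.0 normalized counts in mES cells and fell in WT cells to 48 h (−1.69, SE 0.20, edgeR adjusted p = 5.08e-11). It rose in WT cells to 72 h (1.14, SE 0.19, adjusted p = 5.05e-07), to 96 h (1.25, SE 0.15, adjusted p = 1.44e-10) and to 144 h (0.56, SE 0.13, adjusted p = 0.000139). Over the last step the mean of WT–emiRFP cells went only from 92.7 ± 11.5 to 98.5 ± 1.99. In p53KO–emiRFP cells Snai2 rose to 72 h (0.95, SE 0.33, adjusted p = 0.014, lost without replicate 1 with adjusted p = 0.233), to 96 h (1.53, SE 0.25, adjusted p = 1.04e-06) and to 144 h (1.57, SE 0.21, adjusted p = 4.14e-08). Tfap2a, an AP-2 factor of the border and the surface ectoderm on the minus strand (ENSMUSG00000021359.16, chr13:40715302-40738376), had 29 counts or more in every library, mES cells included. It rose in WT cells to 96 h (0.68, SE 0.12, adjusted p = 1.8e-06) and to 144 h (0.59, SE 0.11, adjusted p = 4.15e-06), and in p53KO–emiRFP cells to 72 h (0.79, SE 0.22, adjusted p = 0.00189, lost without replicate 2 with adjusted p = 0.0656). The exons of 3 antisense genes overlap Tfap2a, with at most 15 counts in a library, and reads of the pair cannot be told apart if strand was not used in counting.

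**Figure D1:**
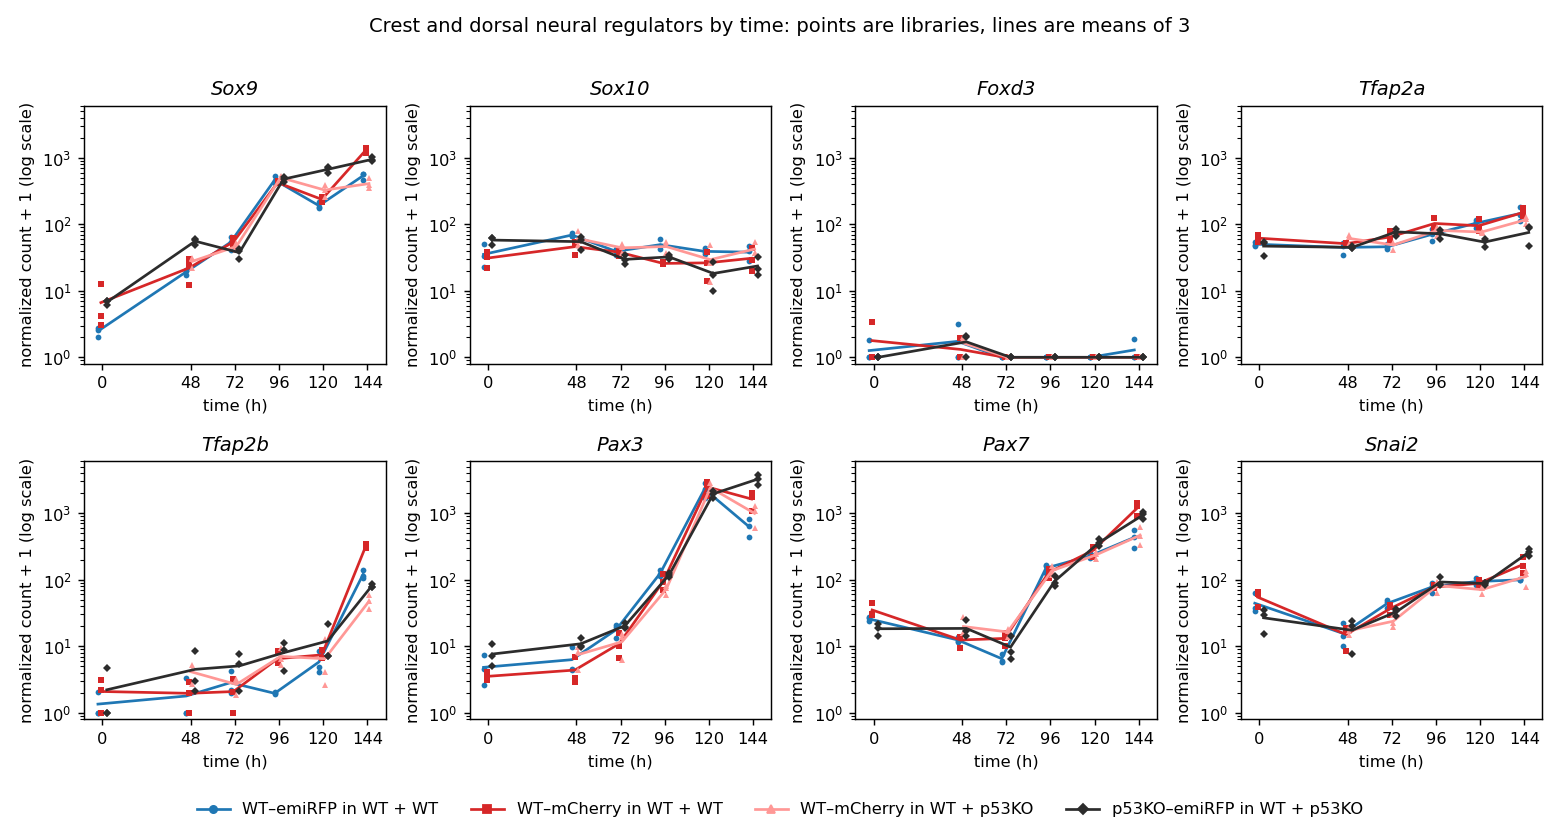
Normalized count + 1 (log axis) of each gene against time in hours, with a point for each library and lines through the means of 3 replicates, for the 4 sorted populations and their mES clones at 0 h. Pax3 climbs to between 1954 and 2474 at 120 h in all 4 populations and parts at 144 h, Tfap2b lies at or under 20.8 until 120 h and at 35.0 to 342 at 144 h, and Sox10 and Foxd3 show no late rise.

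Counted over the genes, in WT cells 4 of the 7 tested (Foxd3 was too low) changed between 0 and 48 h, 2 up and 2 down, where 70.3% of all tested genes did. The counts were 4 at 72 h (66.9% of all genes), 5 at 96 h (58.6%), 3 at 120 h (56.8%) and 6 at 144 h (55.4%), each against the time before. p53KO–emiRFP cells had 1 at 48 h (59.5% of all genes), 5 at 72 h (46.4% of all genes), 4 at 96 h (44.5% of all genes), 3 at 120 h (34.9% of all genes) and 5 at 144 h (22.7% of all genes). Of the 5 called in p53KO–emiRFP cells at 72 h, each lost its call without at least 1 replicate, with adjusted p from 0.0579 to 0.397.

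Per kilobase of exon, the order of the genes at 144 h depended on the population. In p53KO–emiRFP cells it was Pax3 (524 normalized counts per kb), Sox9 (228), Pax7 (161), Snai2 (127), Tfap2a (15.2), Tfap2b (12.6), Sox10 (7.41) and Foxd3. In WT–mCherry cells of WT + WT gastruloids Sox9 was first (317), then Pax3 (264), Pax7 (204), Snai2 (83.0), Tfap2b (51.4), Tfap2a (30.4) and Sox10 (9.79). There, Pax3 and its neighbours in the order, Sox9 and Pax7, had means closer than the SD of Pax3 between replicates, and in p53KO–emiRFP cells the same held for Tfap2b and Tfap2a and the SD of Tfap2a. In both WT–emiRFP cells and WT–mCherry cells beside p53KO cells, the leading genes were Sox9, Pax3 and Pax7, all between 73.5 and 160.2 normalized counts per kb.

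p53KO–emiRFP cells were first compared with WT–emiRFP cells of WT + WT gastruloids, the clone they were made from. The groups of this comparison by genotype also differ in the neighbours of the cells and in the number seeded (25 against 150), and these cannot be told apart from the loss of p53. At 144 h Pax3, Snai2, Pax7 and Sox9 were higher in p53KO–emiRFP cells and Tfap2a and Tfap2b were lower. These are 6 of 7 tested genes, at a time when 65.3% of all tested genes differed, so the count is near the background and the sizes carry the description.

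Pax3 at 144 h had 3809, 2690.4 and 3229 normalized counts in the p53KO–emiRFP libraries and 821, 438 and 637 in the WT–emiRFP libraries. All 3 knockout libraries were higher than every library of the 3 WT populations, of which the highest had 2042. The difference from WT–emiRFP cells was 5.12-fold (log2 2.36, SE 0.29, edgeR adjusted p = 7.95e-06). At 120 h the same groups overlapped, with 1706 to 2189.6 against 1699 to 2867, and Pax3 did not pass the test (−0.23, adjusted p = 0.35).

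Snai2 at 144 h had 285, 228 and 259 normalized counts in p53KO–emiRFP cells and 101, 97.3 and 97.4 in WT–emiRFP cells. The groups did not overlap, and the knockout libraries were again above all 9 WT libraries, of which the highest had 217. The difference was 2.62-fold (log2 1.39, SE 0.21, edgeR adjusted p = 5.68e-05).

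Sox9 differed a day earlier. At 120 h it had 579, 731 and 694 normalized counts in p53KO–emiRFP cells and 172, 179 and 217 in WT–emiRFP cells, a 3.52-fold difference (log2 1.82, SE 0.15, edgeR adjusted p = 2.55e-07). At 144 h it had 933, 1014 and 885 against 578, 568 and 461, which is 1.76-fold (0.82, SE 0.12, adjusted p = 5e-05). The groups did not overlap at either time. Sox9 was also higher at 48 h, at low levels, with 58.4, 57.5 and 48.3 against 18.8, 16.6 and 19.6 (1.57, SE 0.27, adjusted p = 0.000621).

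Pax7 changed sign with time. At 96 h p53KO–emiRFP cells had less than WT–emiRFP cells, with 80.7, 89.4 and 113 normalized counts against 124, 164 and 157 (−0.65, SE 0.17, edgeR adjusted p = 0.0141, 0.0684 without replicate 1 and 0.152 without replicate 2). At 120 h it was higher, with 404, 324 and 349 against 223, 209 and 249.6 (0.66, SE 0.14, adjusted p = 0.00159, 0.0542 without replicate 1). At 144 h it had 1036, 975 and 812 against 554, 303 and 436 (1.12, SE 0.23, adjusted p = 0.00073).

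Both AP-2 genes were lower. Tfap2a at 120 h had 43.9, 59.8 and 55.2 normalized counts in p53KO–emiRFP cells and 87.2, 106 and 115 in WT–emiRFP cells (−0.95, SE 0.19, edgeR adjusted p = 0.000685). At 144 h it had 46.5, 90.2 and 86.3 against 112, 138 and 182 (−0.96, SE 0.24, adjusted p = 0.0027). At 72 h Tfap2a had been higher, with 66.2, 85.4 and 76.2 against 48.8, 44.6 and 41.4 (0.76, SE 0.18, adjusted p = 0.00617, 0.0738 without replicate 2). Tfap2b at 144 h had 77.5, 85.2 and 77.6 against 138, 114 and 105 (−0.57, SE 0.17, adjusted p = 0.00808, 0.0626 without replicate 1 and 0.0535 in one fit of all 23 groups).

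Sox10 was lower in p53KO–emiRFP cells at 96 h by 0.62 (SE 0.19, edgeR adjusted p = 0.0282), a call lost without any one of the replicates (adjusted p from 0.0772 to 0.281) and with DESeq2 (0.085). At 120 h Sox10 had 9.03 to 26.3 normalized counts in the knockout cells and differed by −1.13 (SE 0.47, adjusted p = 0.0574, 0.00513 under the block). At 144 h it had 16.4 to 31.1 and differed by −0.72 (SE 0.34, adjusted p = 0.0751, 0.0185 under the block). In mES cells none of the 4 genes tested passed between p53KO–emiRFP and WT–emiRFP cells, where 6.13% of all genes did. The other counts of genes called were 1 of 5 tested at 48 h (22.0% of all genes), 1 of 6 at 72 h (29.1%), 2 of 6 at 96 h (23.3%) and 3 of 6 at 120 h (51.0%). With the block they became 4 at 120 h and 7 at 144 h.

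**Figure D2:**
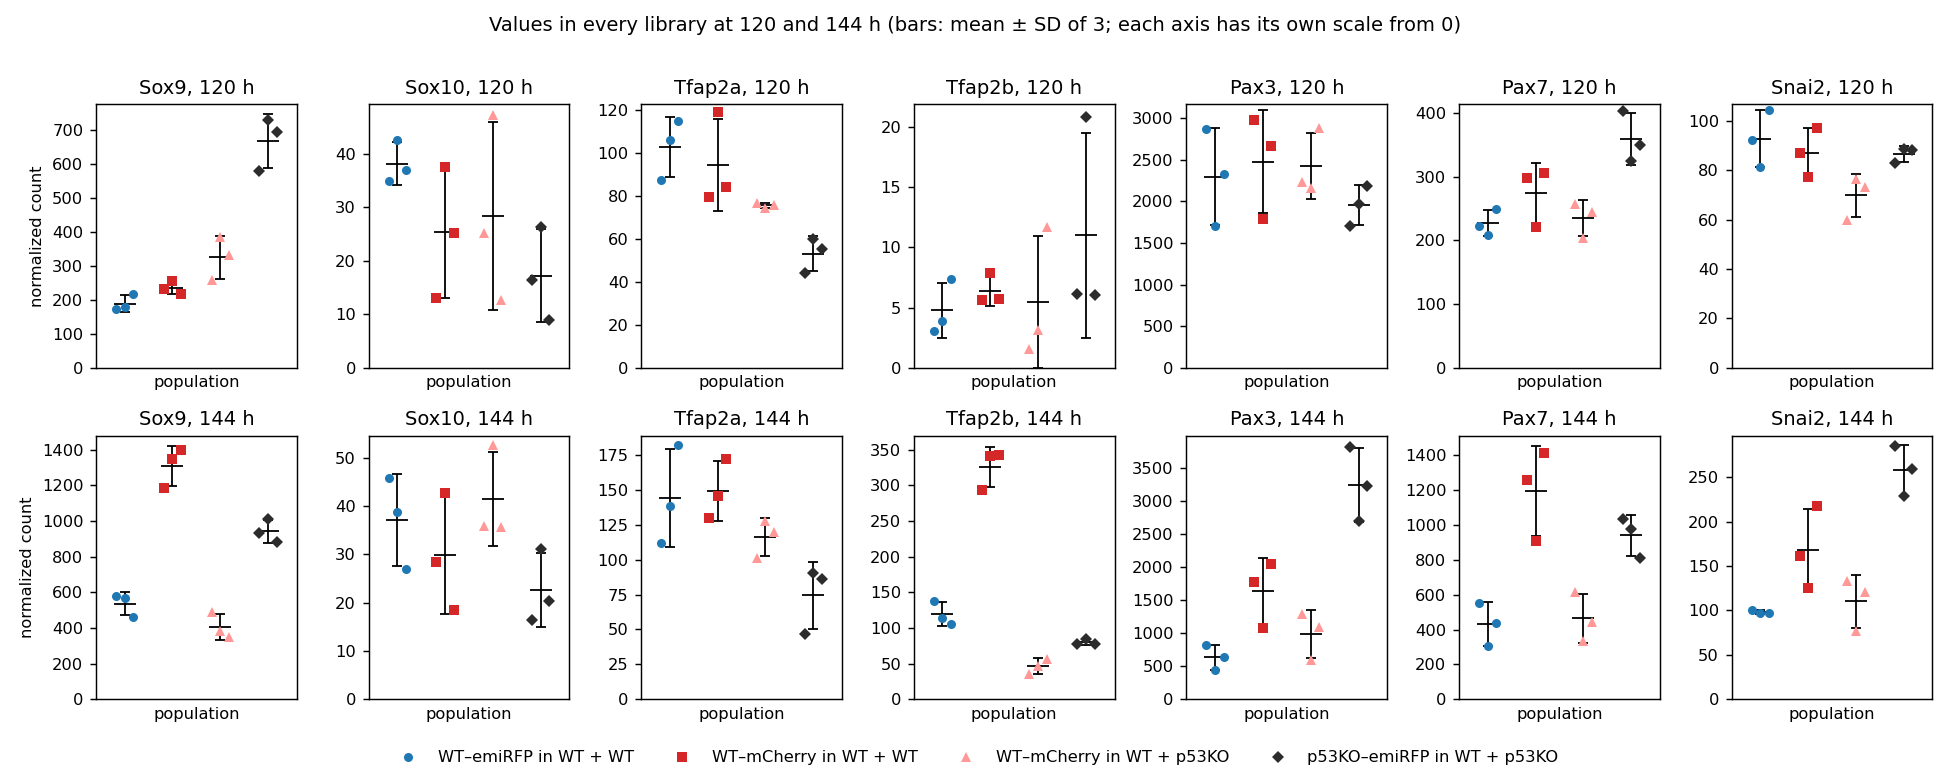
Normalized counts of 7 genes at 120 h (top row) and 144 h (bottom row), with a point for each library and black bars for the mean ± SD of 3 replicates in each of the 4 sorted populations. At 144 h the p53KO–emiRFP libraries stand above all WT libraries for Pax3 and Snai2, while for Sox9 and Tfap2b the WT–mCherry libraries of WT + WT gastruloids, at 1184 to 1399 and 294 to 342, stand highest.

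The direction of several differences at 144 h depended on which WT population was the reference. This was examined after the values had been seen. The replicate block was not run against these other references, also not against WT–mCherry cells from the same gastruloids as the p53KO–emiRFP cells. Against WT–mCherry cells of WT + WT gastruloids, 5 of 7 genes passed at 144 h, where 54.0% of all genes did. Pax3 (1.00, SE 0.28, edgeR adjusted p = 0.00785) and Snai2 (0.63, SE 0.20, adjusted p = 0.0189) were again higher in p53KO–emiRFP cells and Tfap2a was again lower (−1.01, SE 0.24, adjusted p = 0.00264). Sox9, however, was lower in p53KO–emiRFP cells (−0.47, SE 0.12, adjusted p = 0.00451), and Tfap2b was lower by 2.02 (SE 0.16, adjusted p = 2.27e-07). Pax7 did not pass (−0.34, SE 0.22, adjusted p = 0.218).

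Against the WT–mCherry cells of the same WT + p53KO gastruloids, all 7 tested genes passed at 144 h, where 64.2% of all genes did. Pax3 (1.71, SE 0.28, edgeR adjusted p = 0.000128), Snai2 (1.22, SE 0.21, adjusted p = 0.000172), Sox9 (1.21, SE 0.13, adjusted p = 1.69e-06), Pax7 (1.02, SE 0.23, adjusted p = 0.00157) and Tfap2b (0.78, SE 0.18, adjusted p = 0.0018) were higher in p53KO–emiRFP cells. Tfap2a (−0.65, SE 0.24, adjusted p = 0.0288) and Sox10 (−0.88, SE 0.33, adjusted p = 0.0323) were lower. At 144 h the higher Pax3 and Snai2 and the lower Tfap2a of p53KO–emiRFP cells passed against each of the 3 WT populations, whereas the sign for Sox9, Pax7 and Tfap2b did not hold for all. At 120 h Sox9, Pax7 and Tfap2a kept their direction and passed against each of the 3. There Sox9 was higher by 1.51 (SE 0.15, adjusted p = 1.81e-06) than in WT–mCherry cells of WT + WT and by 1.04 (SE 0.14, adjusted p = 6.63e-05) than in those of the same gastruloids. In these comparisons 3 of 6 genes passed at 120 h, where 44.3% and 39.5% of all genes did.

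At the earlier times the other references gave the following counts. Against WT–mCherry cells of WT + WT gastruloids 1 of 5 genes passed at 48 h (25.5% of all genes), and none of 6 at 72 h (29.5%) or 96 h (24.8%). Against those of the same gastruloids 1 of 5 passed at 48 h (25.3%), 2 of 6 at 72 h (31.4%) and 2 of 6 at 96 h (23.6%). The gene at 48 h was Sox9 in both, higher in p53KO–emiRFP cells by 1.38 (SE 0.26, adjusted p = 0.000945) and 1.02 (SE 0.25, adjusted p = 0.00646), so that its early difference passed against all 3 WT populations. The calls for Pax7 and Sox10 at 96 h and Tfap2a at 72 h did not pass against WT–mCherry cells of WT + WT gastruloids, and Sox10 at 96 h turned (0.34, SE 0.21, adjusted p = 0.277). In mES cells, p53KO–emiRFP against WT–mCherry cells gave 2 of 4 genes (21.4% of all genes), Sox10 higher (0.96, SE 0.32, adjusted p = 0.0466) and Pax7 lower (−0.99, SE 0.29, adjusted p = 0.026).

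WT–mCherry cells were next compared by neighbour, beside p53KO–emiRFP against beside WT–emiRFP cells. At 144 h Tfap2b, Sox9 and Pax7 were lower beside p53KO cells. These were 3 of 7 tested genes, against 25.5% of all genes, and 5 of 7 with the block. Without the block no gene passed at 48, 72 and 120 h (0.0735%, 0.559% and 5.95% of all genes). At 96 h 1 of 6 did (3.93%), which was higher beside p53KO cells, as 2.87% of all genes were. Sox9 at 120 h had 259, 386 and 332 normalized counts beside p53KO cells and 232, 256 and 219 beside WT cells, groups that did not overlap. The difference did not pass the test (0.47, SE 0.15, edgeR adjusted p = 0.0825). It passed with the block, with the adjusted p given in the last section, although same-numbered samples did not all deviate together there. Tfap2a, in contrast, had fewer counts beside p53KO cells with no overlap at 72 h (40.4 to 51.9 against 53.5 to 77.5), 120 h (74.1 to 76.6 against 79.6 to 119) and 144 h (101 to 127 against 130.1 to 172), and did not pass at any of these times (−0.42, −0.31 and −0.36, adjusted p = 0.459, 0.352 and 0.274). The same held for Snai2 at 72 h (18.7 to 28.1 against 28.7 to 40.8, log2 −0.66, adjusted p = 0.303) and 120 h (60.0 to 76.5 against 77.1 to 97.04, log2 −0.32, adjusted p = 0.251). Pax7 at 48 h was on the other side (14.6 to 26.9 against 8.51 to 12.9, log2 0.72, adjusted p = 0.824). The share of all genes whose groups of 3 libraries did not overlap was not counted. These cases therefore have no background, and none is read as a difference by neighbour.

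Tfap2b showed the largest difference by neighbour of the 7 genes. At 144 h it had 35.0, 46.9 and 57.0 normalized counts beside p53KO cells and 294, 341 and 342 beside WT cells, a 6.98-fold difference (log2 −2.80, SE 0.17, edgeR adjusted p = 1.33e-06). Sox9 had 489.9, 386 and 348 beside p53KO cells and 1184, 1349.6 and 1399 beside WT cells (−1.69, SE 0.13, adjusted p = 6.16e-06). Pax7 had 615, 335 and 445 against 1261, 908 and 1414 (−1.36, SE 0.23, adjusted p = 0.00124). None of these 3 pairs of groups overlapped.

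For Pax3 and Snai2 the groups overlapped at 144 h. Pax3 had 1292, 589 and 1093 normalized counts beside p53KO cells and 1774, 1076 and 2042 beside WT cells (−0.71, SE 0.28, edgeR adjusted p = 0.0813, 0.000202 under the block). Snai2 had 134, 76.5 and 121 against 161, 125 and 217 (−0.59, SE 0.21, adjusted p = 0.0564, 0.00807 under the block). In both genes each of the 3 same-numbered pairs was lower beside p53KO cells. Sox10 passed at 96 h, with 36.6, 52.3 and 47.1 beside p53KO cells against 24.0, 25.7 and 24.6 (0.87, SE 0.20, adjusted p = 0.0331), and lost its call without any one replicate (adjusted p from 0.137 to 0.36). At 96 h Sox9 was 0.25 higher beside p53KO cells (SE 0.10, adjusted p = 0.194, 0.0375 under the block).

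The WT–emiRFP and WT–mCherry cells of WT + WT gastruloids, 2 WT clones that developed together, give the spread between clones. This comparison shares the WT–emiRFP libraries with the first and the WT–mCherry libraries of WT + WT with the comparison by neighbour, so the values of the 3 are not independent. Without the block no gene passed the test between the clones at 0, 48, 72 and 120 h (11.1%, 8.89%, 7.64% and 1.24% of all genes did). At 96 h 1 of 6 did (2.15%). At 144 h 5 of 7 genes were lower in WT–emiRFP cells, against 23.8% of all genes. They were Pax7 (−1.46, SE 0.23, edgeR adjusted p = 0.00066), Tfap2b (−1.45, SE 0.16, adjusted p = 6.99e-05), Pax3 (−1.36, SE 0.29, adjusted p = 0.00439, 0.0889 without replicate 3), Sox9 (−1.29, SE 0.12, adjusted p = 4.64e-05) and Snai2 (−0.76, SE 0.22, adjusted p = 0.0208, 0.117 without replicate 1 and 0.227 without replicate 3). Tfap2a did not differ in this test, with 112 to 182 normalized counts in WT–emiRFP and 130.1 to 172 in WT–mCherry cells (−0.05, SE 0.23, adjusted p = 0.911).

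For Sox9, Pax7 and Tfap2b the fitted difference at 144 h between these WT clones (1.29, 1.46 and 1.45 in size) was larger than that of p53KO–emiRFP from WT–emiRFP cells (0.82, 1.12 and 0.57 in size), though these sizes were not tested against each other. The WT–mCherry cells of WT + WT gastruloids had the highest mean of the 4 populations for all 3 genes. At 96 h the gene that passed was Sox10 (0.96, SE 0.20, adjusted p = 0.0236), which lost its call without any one replicate (edgeR adjusted p from 0.114 to 0.285). With the block, 3 genes passed at 96 h, the others being Pax3 (0.41, SE 0.19, adjusted p = 0.292, 0.0381 under the block) and Tfap2a (−0.54, SE 0.19, adjusted p = 0.169, 0.0435 under the block). With it, Sox10 also passed at 48 h (0.58, SE 0.23, adjusted p = 0.132, 0.0154 under the block).

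**Figure D3:**
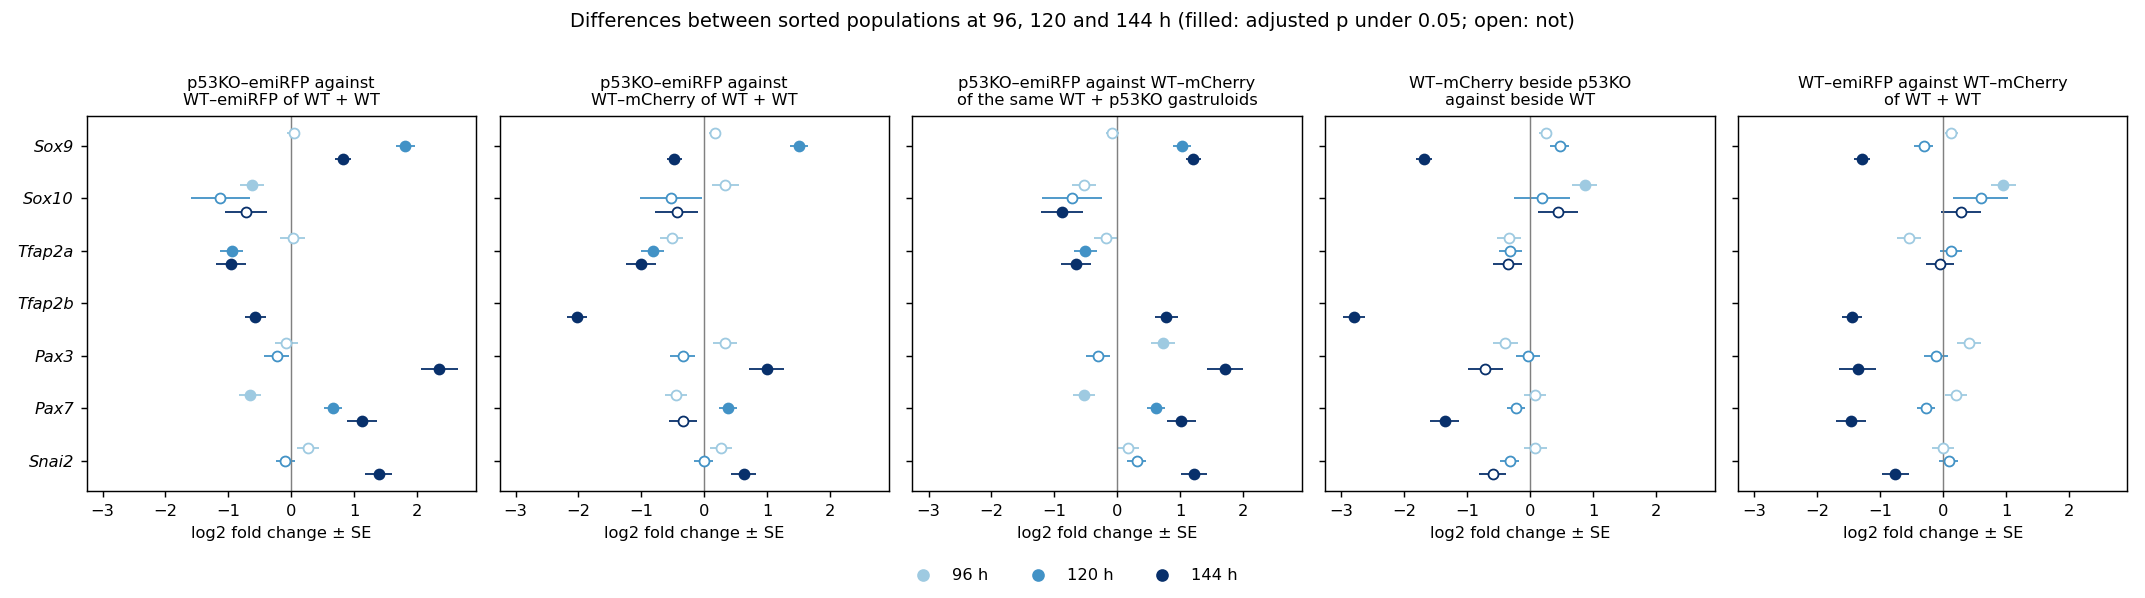
Log2 fold change ± SE of 7 genes at 96, 120 and 144 h in 5 comparisons of sorted populations, with filled points for adjusted p under 0.05. Pax3 and Snai2 at 144 h lie right of 0 and Tfap2a left of 0 in all 3 panels of p53KO–emiRFP cells, while Sox9 lies on either side at 144 h, with 0.82, −0.47 and 1.21.

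The difference by genotype and the difference by neighbour were then set against each other in one contrast, (p53KO–emiRFP minus WT–emiRFP) minus (WT–mCherry beside p53KO minus beside WT). It uses all 4 populations and subtracts with sign, so a positive value does not mean that the difference by genotype was the larger in size. At 144 h 6 of 7 genes passed, 5 of them positive, against 62.0% of all genes. Pax3 (3.07, SE 0.41, adjusted p = 1.76e-05), Sox9 (2.50, SE 0.18, adjusted p = 5.63e-08), Pax7 (2.48, SE 0.33, adjusted p = 1.73e-05), Tfap2b (2.23, SE 0.24, adjusted p = 2.37e-06) and Snai2 (1.98, SE 0.30, adjusted p = 6.24e-05) were positive. For Tfap2b both differences were negative (−0.57 by genotype and −2.80 by neighbour), and for Sox9 (0.82 and −1.69) and Pax7 (1.12 and −1.36) they were opposite in sign, with the larger fitted size by neighbour, though the sizes were not tested against each other. Sox10 was negative (−1.16, SE 0.46, adjusted p = 0.042, 0.282 without replicate 1 and 0.0791 without replicate 3). Tfap2a did not pass (−0.60, SE 0.33, adjusted p = 0.126, 0.0228 under the block).

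At 120 h 2 of 6 genes passed this contrast (33.2% of all genes), Sox9 (1.35, SE 0.21, adjusted p = 0.000259) and Pax7 (0.89, SE 0.20, adjusted p = 0.00427, 0.0941 without replicate 1). At 96 h Sox10 passed (−1.49, SE 0.28, adjusted p = 0.00252, 0.0782 without replicate 2; 13.0% of all genes did), and at 72 h Tfap2a (1.18, SE 0.26, adjusted p = 0.00501, 0.0616 without replicate 2; 20.5% of all genes). At 48 h none of 5 passed (10.9% of all genes). The block added Sox9 (1.21, adjusted p = 0.063, 0.0202 under the block) and Sox10 (−0.72, adjusted p = 0.165, 0.0287 under the block) at 48 h, and Pax7 at 96 h (−0.72, adjusted p = 0.0689, 0.00312 under the block). At 120 h it added Sox10 and Tfap2a, both negative, although same-numbered samples by neighbour did not all deviate together there. Their adjusted p values are given in the last section.

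A last contrast asked whether the difference of p53KO–emiRFP from WT–emiRFP cells changed from one time to the next. None of 7 genes passed at 48 h (5.98% of all genes) or at 96 h (11.0% of all genes). At 72 h Sox9 passed (−2.07, SE 0.34, adjusted p = 8.19e-05; 1.76% of all genes did), with 36.5 ± 6.60 normalized counts in p53KO–emiRFP and 52.5 ± 11.6 in WT–emiRFP cells at that time. At 120 h 3 passed (30.8% of all genes), Sox9 (1.77, above), Pax7 (1.31, SE 0.27, adjusted p = 9.85e-05) and Tfap2a (−0.97, SE 0.28, adjusted p = 0.00588, 0.192 without replicate 3). At 144 h 4 passed (16.9%), Pax3 (2.59, above), Snai2 (1.49, SE 0.31, adjusted p = 0.000249), Sox9 (−1.0, SE 0.20, adjusted p = 0.000133) and Tfap2b (−1.77, SE 0.59, adjusted p = 0.0305, 0.137 without replicate 1 and 0.628 without replicate 2).

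Other genes of the same programmes were read from lists of their own. These lists were drawn up with earlier results of these data known. Their counts for p53KO–emiRFP against WT–emiRFP cells stand against the shares of all genes that passed, which at 96 h were 9.45% higher and 13.8% lower. At 120 h these shares were 27.3% (higher) and 23.7% (lower), rising to 33.1% (higher) and 32.1% (lower) by 144 h. Of 12 genes of crest specification and emigration, 6 were lower and 1 was higher in the knockout cells at 96 h (median −0.14 on the log2 scale), the opposite of the later times. In p53KO–emiRFP against WT–emiRFP cells at 144 h 9 of 12 were higher and 1 was lower, with a median of 1.39, where the median of all genes was 0.00665. Zeb2, a zinc-finger regulator of the epithelial-to-mesenchymal transition, had 2423 ± 66.4 normalized counts against 439.5 ± 51.8 (2.46, SE 0.15, edgeR adjusted p = 6.23e-09), and Ets1, an ETS factor of cranial crest and endothelium, 4734 ± 667 against 1068 ± 146 (2.15, SE 0.16, adjusted p = 3.63e-08). Myb was lower (−0.99, SE 0.15, adjusted p = 4.2e-05). At 120 h 6 were higher and 2 lower of 12, with Snai1 (1.29, SE 0.19, adjusted p = 4.82e-05) and Zeb2 (1.21, SE 0.13, adjusted p = 3.11e-06) in front, and Myb (−0.92, SE 0.16, adjusted p = 0.000266) and Cdh6 (−0.41, SE 0.14, adjusted p = 0.0222) lower. In WT–mCherry cells by neighbour at 144 h 7 of 12 were lower and none was higher beside p53KO cells (15.4% and 10.1% of all genes), and 9 of 12 were lower in WT–emiRFP than in WT–mCherry cells (13.0% of all genes).

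Genes of the neural plate border were split in p53KO–emiRFP cells, with 4 of 10 higher and 4 lower at 144 h, against WT–emiRFP cells. Zic1 (3.01, SE 0.16, edgeR adjusted p = 2.55e-09) and the BMP target Msx1 (2.67, SE 0.18, adjusted p = 2.42e-08) were higher. The AP-2 gene Tfap2c, which is also expressed in mES cells and germ cells, had 1660.0 ± 255 against 7663 ± 297 normalized counts (−2.21, SE 0.09, adjusted p = 3.59e-10), and Msx2 was lower too (−1.25, SE 0.14, adjusted p = 2.16e-06). At 120 h the split was again 4 and 4 of 10, with Dlx5 (2.41, SE 0.24, adjusted p = 1.82e-06) and Zic1 (1.69, SE 0.20, adjusted p = 7.07e-06) higher and Tfap2c (−2.25, SE 0.09, adjusted p = 2.93e-10) and Msx2 (−1.34, SE 0.17, adjusted p = 1.68e-05) lower.

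Of the markers of migrating crest and its derivatives, none of 9 tested was higher and 3 were lower in p53KO–emiRFP cells at 96 h (median −0.387). Against WT–emiRFP cells, 3 of 11 tested were higher and 1 lower in p53KO–emiRFP cells at 144 h, with a median of 0.22. Ednrb, the endothelin receptor of crest precursors, was higher (1126 ± 295 against 538.5 ± 107, log2 1.06, SE 0.21, edgeR adjusted p = 0.000428), as was the receptor gene Ret (0.74, SE 0.19, adjusted p = 0.00416). Erbb3, a neuregulin receptor that is also expressed in epithelia, was lower at 144 h (−2.11, SE 0.10, adjusted p = 1.03e-09) and at 120 h (−2.14, SE 0.13, adjusted p = 1.31e-08). At 120 h 5 of 9 were higher and 1 lower (median 0.483), led by Ngfr (1.14, SE 0.09, adjusted p = 1.32e-07) and Ret (0.92, SE 0.17, adjusted p = 0.00056). Cdh19 of Schwann cell precursors and Dct of melanoblasts, picked out after their values had been seen, had few counts. In p53KO–emiRFP cells at 144 h, Cdh19 had 0.323 ± 0.560 normalized counts and Dct had 8.91 ± 4.30. In WT–emiRFP cells Cdh19 had 1.84 ± 0.782 and Dct had 3.68 ± 1.56.

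Dorsal and ventral neural tube genes moved little or in both directions at 144 h. Of 12 roof plate and dorsal interneuron genes, p53KO–emiRFP cells had 3 higher and 4 lower, against WT–emiRFP cells. Wnt3a, which is also expressed in the tail bud, had 606 ± 90.3 against 88.2 ± 16.1 normalized counts (2.78, SE 0.19, edgeR adjusted p = 2.19e-08) and Rspo1 was higher (2.21, SE 0.13, adjusted p = 4.97e-09). Olig3 (−2.53, SE 0.16, adjusted p = 1.18e-08) and Neurog1 (−0.72, SE 0.29, adjusted p = 0.0441) were lower. At 120 h 3 of 8 tested were higher, led by Wnt3a (3.37, SE 0.17, adjusted p = 1.71e-09) and Rspo1 (0.79, SE 0.11, adjusted p = 3.54e-05), and 2 were lower, with Olig3 at −2.31 (SE 0.22, adjusted p = 9.87e-07). Of 6 ventral genes tested at 144 h none was higher and 2 were lower, and at 120 h none of 5 was higher and 2 were lower. Of 8 neural progenitor genes, 7 were higher and Sox2 lower (−1.03, SE 0.09, adjusted p = 2.63e-07) at 144 h, with Nkx1-2 (4.39, SE 0.12, adjusted p = 2.21e-11) and Hes5 (2.34, SE 0.43, adjusted p = 0.000259) in front. At 120 h 4 were higher, led by Hes5 (2.22, SE 0.20, adjusted p = 5.64e-07) and Nkx1-2 (1.01, SE 0.11, adjusted p = 3.14e-06), and Sox2 was lower (−1.27, SE 0.08, adjusted p = 1.41e-08).

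Somite genes, which share Pax3, Pax7, Sox9 and Snai2 with the crest, had the largest median difference of the 13 lists at 144 h. There all 12 genes of presomitic mesoderm and somites were higher in the knockout cells (WT–emiRFP as reference), with a median of 3.34, led by Hes7 (6.14, SE 0.32, edgeR adjusted p = 1.96e-09) and Foxc2 (4.27, SE 0.29, adjusted p = 1.77e-08). At 120 h 8 were higher and 1 lower, with Msgn1 (4.69, SE 0.25, adjusted p = 3.61e-09) and Tbx6 (3.88, SE 0.18, adjusted p = 1.02e-09) in front and Meox2 lower (−1.40, SE 0.35, adjusted p = 0.00388). At 96 h the direction was the opposite, with none of 10 tested higher and 7 lower (median −1.19), and their summed level was 14740 to 20280 normalized counts in p53KO–emiRFP and 31860 to 37600 in WT–emiRFP cells. By neighbour, 6 of the 12 were higher beside p53KO cells and none lower at 120 h (3.43% and 2.53% of all genes, median 0.774), and 6 were higher and 2 lower at 144 h (median 0.864). Of 11 genes of dermomyotome, myotome and sclerotome tested at 144 h, 7 were higher and 2 lower, with a median of 0.99. Among them were Pax1 of the sclerotome (867 ± 220 against 290.5 ± 35.1 normalized counts, log2 1.58, SE 0.29, adjusted p = 0.000299), Sim1 of the dermomyotome (1.57, SE 0.36, adjusted p = 0.00154) and, lower, Acan of cartilage (−2.54, SE 0.14, adjusted p = 3.55e-09). At 120 h 1 of 10 was higher and 3 were lower, among them Acan (−1.96, SE 0.16, adjusted p = 2.24e-07) and Pax1 (−1.49, SE 0.45, adjusted p = 0.013). By neighbour, 8 of the 11 genes of dermomyotome, myotome and sclerotome were lower beside p53KO cells at 144 h, with a median of −1.41, and 7 were lower in WT–emiRFP than in WT–mCherry cells, with a median of −1.22. The summed level of this list at 144 h was 12130 to 17590 normalized counts in WT–mCherry cells of WT + WT gastruloids and 15710 to 19510 in p53KO–emiRFP cells, and 6556 to 8272 in WT–emiRFP and 6251 to 9782 in WT–mCherry cells beside p53KO cells. These are the same pairs of populations that were high and low for Sox9 and Pax7. The crest specification and emigration list split alike at 144 h. Its higher sums were 20770 to 22960 (p53KO–emiRFP) and 12510 to 14330 (WT–mCherry of WT + WT). Its lower sums were 7780 to 8669 (WT–emiRFP) and 9287 to 10570 (WT–mCherry beside p53KO). Sums of presomitic mesoderm and somites overlapped, with 7451 to 10550 (WT–mCherry of WT + WT) and 5391 to 11020 (WT–mCherry beside p53KO). The 8 neural progenitor genes had 6 lower in WT–emiRFP than in WT–mCherry cells (median −1.04). By neighbour, 4 were lower and 1 higher beside p53KO cells (median −0.407). Their summed levels, 15700 to 22480 over the 12 libraries, overlapped between the pairs that were high and low for Sox9 and Pax7. Sox2 alone had 7811 ± 464 of this sum in p53KO–emiRFP and 15940 ± 1502 in WT–emiRFP cells, opposite in direction to the rest of the list. The overlap of the sums therefore does not describe the other genes of the list. The part of somite cells in the levels of the crest and dorsal genes was not tested.

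Genes of naive pluripotency were lower. All 8 were lower in the knockout cells (WT–emiRFP as reference) at 96, 120 and 144 h, with medians of −1.16, −2.52 and −2.30. Nanog was lower at 120 h (−2.81, SE 0.08, edgeR adjusted p = 8.22e-12), Prdm14 at both times (−3.43, SE 0.11, adjusted p = 4.66e-11, and −3.00, SE 0.13, adjusted p = 5.19e-10) and Zfp42 at 144 h (−2.66, SE 0.13, adjusted p = 1.01e-09). Their summed level at 144 h was 13270 to 20210 normalized counts in p53KO–emiRFP cells, 80040 to 93350 in WT–emiRFP cells, 57160 to 63310 in WT–mCherry cells of WT + WT gastruloids and 61990 to 71880 in those beside p53KO cells. In WT–mCherry cells by neighbour none of the 8 passed at 144 h in either direction (median 0.213). At the earlier times none was higher beside p53KO cells, and those lower were 2 at 48 h (0.0735% of all genes), 3 at 72 h (0.327%), 3 at 96 h (1.05%) and 2 at 120 h (2.53%). Against WT–mCherry cells, WT–emiRFP cells had 7 of the 8 higher at 144 h, where 10.8% of all genes were. The direction was the opposite earlier, with 5 of the 8 lower in WT–emiRFP cells at both 48 h (median −0.468; 4.71% of all genes) and 72 h (median −0.521; 3.3%). The part of these cells in the differences was not tested.

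Of the 11 surface ectoderm genes, which share Tfap2a, p53KO–emiRFP cells had 8 lower at 144 h (1 higher, median −0.84; 32.1% of all genes were lower) and 7 lower at 120 h (1 higher; 23.7%). At 96 h 4 of 9 tested were higher and 2 lower (median 0.0468; 9.45% and 13.8% of all genes), and the summed level was higher, with 32180 to 35950 normalized counts against 22030 to 26230 in WT–emiRFP cells. Cdh1 was lower at both times (−1.50, SE 0.13, edgeR adjusted p = 1.96e-07 at 144 h, and −0.86, SE 0.11, adjusted p = 1.24e-05 at 120 h), as was Grhl2 (−1.50, SE 0.14, adjusted p = 4.73e-07, and −1.22, SE 0.12, adjusted p = 1.09e-06), and Wnt6 was higher at 120 h (2.00, SE 0.26, adjusted p = 2.08e-05). The epidermal markers Krt5 (6.28 ± 4.07 normalized counts), Krt14 (3.77 ± 0.963) and Trp63 (20.3 ± 7.01) were low in p53KO–emiRFP cells at 144 h, and in WT–emiRFP cells they were at 15.7 ± 4.81 (Krt5), 21.2 ± 4.34 (Krt14) and 34.3 ± 7.99 (Trp63). These were picked out after their values had been seen. Of 7 endoderm and notochord genes tested at 144 h, 2 were higher and 3 lower, with Cer1 (5.93, SE 0.33, adjusted p = 3.28e-09) at one end and Cldn6 (−0.96, SE 0.25, adjusted p = 0.00418) at the other. Of 8 genes of lateral plate and mesenchyme, 3 were higher, with Foxf1 (2.57, SE 0.38, adjusted p = 3.93e-05) in front, and 3 lower, with Hand1 (−2.59, SE 0.44, adjusted p = 0.000133). Of 8 haematoendothelial genes, 1 was higher and 4 lower, with Pecam1 at −2.57 (SE 0.10, adjusted p = 2.69e-10).

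**Figure D4:**
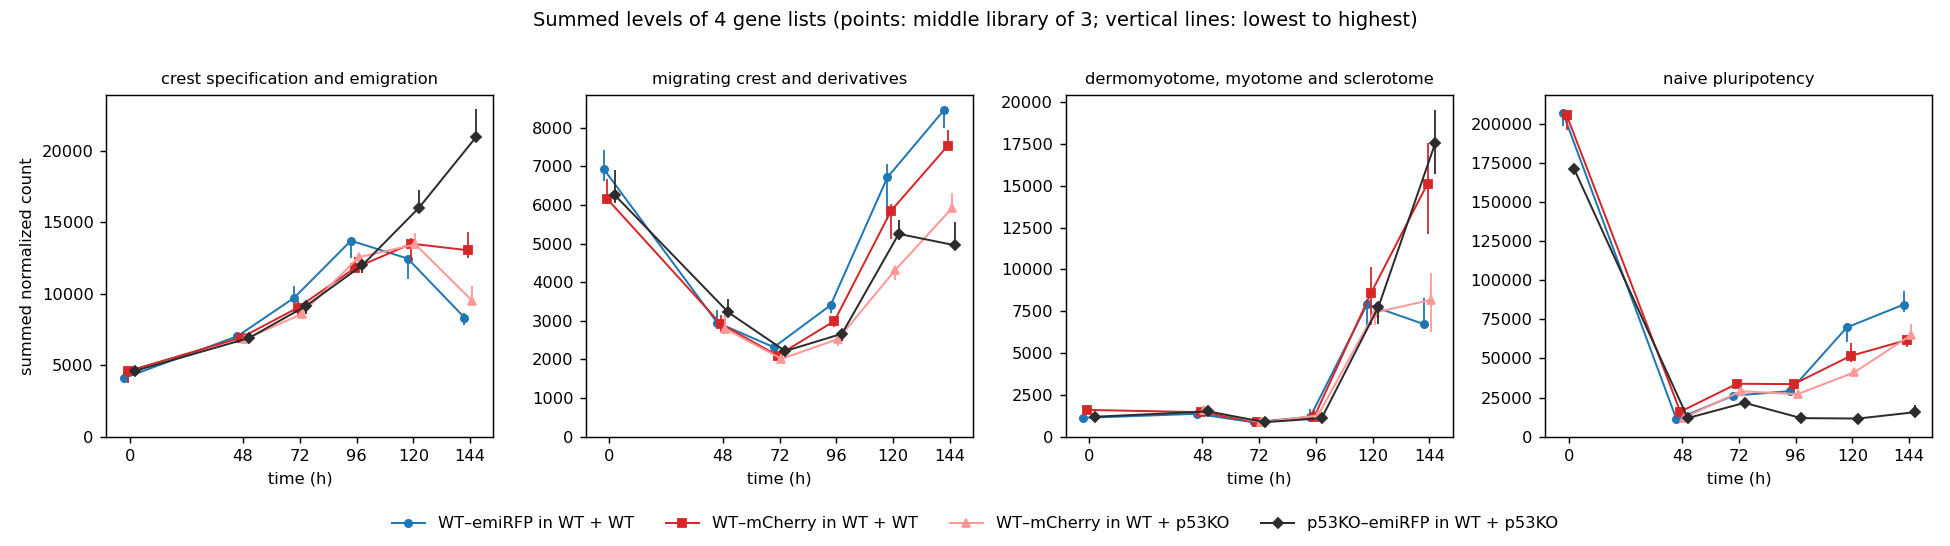
Summed normalized count of 4 gene lists against time in hours in the 4 sorted populations and their mES clones at 0 h, with points for the middle of 3 libraries and vertical lines from the lowest to the highest. At 144 h the dermomyotome list is high in p53KO–emiRFP cells (15710 to 19510) and in WT–mCherry cells of WT + WT gastruloids (12130 to 17590), and the naive pluripotency list is lowest in p53KO–emiRFP cells (13270 to 20210).

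The genes most like each of the 7 measured genes were taken by Pearson's r of log2(normalized count + 1) over the 23 condition means, among 14078 genes. The conditions share times, clones and experiments, so r is a description. Pax3 was most like Fbn2 (fibrillin 2, r = 0.983), Tmem200b (0.98) and Thsd4 (0.977), and Pax7 most like Plppr3 (0.966), Mylk (0.966) and the homeobox gene Meis1 (0.961). Sox9 was most like Fam149a (0.971), Daam2 (0.967) and Itgb8 (0.964). Snai2 was most like Elk3 (an ETS factor, 0.968), Slit2 (a guidance ligand, 0.963) and Glrb (0.96). Tfap2b was most like Rfx4 (a factor of the neural tube, 0.962), Ndnf (0.944) and the neural POU gene Pou3f3 (0.941). Tfap2a had looser neighbours, Phka1 (0.897), Tbrg1 (0.897) and Lama4 (0.868), as did Sox10, Sez6 (0.837), Ccdc92b (0.82) and Arhgef16 (0.814). Among the 7 genes themselves, Pax3 and Pax7 were most alike (r = 0.905), then Pax7 and Snai2 (0.888), and Sox10 was negatively correlated with each of the others (−0.356 to −0.665).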

How the data were processed

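Bulk RNA of 69 libraries was sequenced by the authors, who trimmed reads with TrimGalore (0.6.7), aligned them with STAR (2.7.11b) to GRCm38.p6 with Gencode annotation and deposited raw counts of uniquely mapped reads per gene. The strand setting of the counting is not given in the sources used here.

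Here libraries were scaled by median-of-ratios size factors (0.484 to 1.301). edgeR (4.0.16, R 4.3.3) quasi-likelihood tests were fitted per time, or over all 69 libraries for changes in time, after filtering low counts by group, with the spread shared by the groups fitted. Contrasts on these fits were tested on simulated data. Alternatives were TMM, DESeq2 (1.42.0), no filter, other libraries in the fit, a replicate block, leaving out each replicate and other WT references. Samples with the same number deviated together (r over 0.1 in 48 of 51 pairs over 14078 genes, and in every pair of 14 of 17 comparisons and times).

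Named genes were all 8 members, the 3 most like each, and per list up to 2 with the largest rise and 2 with the largest fall past the threshold at 120 and 144 h, with a mean of at least 50 normalized counts. A few marker genes outside this rule were named after their values were seen. Members and lists were chosen with earlier results of these data known. Some list genes enter the counts but are not reported here by name. Positions and exon lengths are from Gencode release M21, which holds 96.4% of the symbols and is not the release that the paper names. Upstream windows are from RefSeq, and both are GRCm38.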

Additional observations from a re-analysis of the deposited data

Results flagged for a closer look

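These results were picked out because a test of the difference between 2 effects passed, by edgeR's quasi-likelihood test on the log2 scale. The difference by genotype minus that by neighbour, with sign, was positive at 144 h for Pax3 (3.07), Sox9 (2.50), Pax7 (2.48), Tfap2b (2.23) and Snai2 (1.98), and at 120 h for Sox9 (1.35) and Pax7 (0.89). At 72 h it was positive for Tfap2a (1.18). For Sox10 it was negative at 96 h (−1.49) and at 144 h (−1.16). The difference by genotype changed from the time before for Sox9 at 72 h (−2.07), 120 h (1.77) and 144 h (−1.0), for Pax7 at 120 h (1.31) and for Tfap2a at 120 h (−0.97). At 144 h it changed for Pax3 (2.59), Snai2 (1.49) and Tfap2b (−1.77, and −0.83 without replicate 2). Genotype minus neighbour for Tfap2a at 72 h, Pax7 at 120 h and Sox10 at 96 and 144 h lost its call without at least 1 replicate. So did the changes for Tfap2a at 120 h and Tfap2b at 144 h. A positive value does not mean a larger size by genotype, since the difference by neighbour at 144 h was the larger in fitted size for Sox9, Pax7 and Tfap2b. Groups of 3 replicates are too small for a test of single libraries.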

How the results depend on the processing

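Of the 81 gene-level calls, 54 kept their direction and passed under every alternative that was run for them. The other WT references were run only for p53KO–emiRFP against WT cells. The replicate block lost no call and added 16. It moved the count of calls by neighbour from 4 to 8 and that of genotype minus neighbour from 10 to 16. Without a filter on low counts, calls by neighbour numbered 7. Sox9 by neighbour at 120 h (0.47, edgeR adjusted p = 0.0825) passed with the block (0.00609), as did genotype minus neighbour at that time for Sox10 (0.134, then 0.0233) and Tfap2a (0.072, then 0.0235), though same-numbered samples by neighbour did not all deviate together there. Sox10 in p53KO cells from 96 to 120 h (−0.84) passed with the block too (0.0549, then 0.0299). Leaving out each replicate gave 9 to 13 calls for genotype (main 13), 3 to 4 for neighbour, 3 to 5 for WT clones (main 6), 8 to 9 for genotype minus neighbour, 20 to 23 for WT times (main 22), 13 to 17 for p53KO times (main 18) and 7 for changes of the genotype difference (main 8). The other WT references, chosen after seeing the data, turned Sox10 at 96 h (0.34), Pax7 (−0.34) and Sox9 (−0.47) at 144 h against WT–mCherry cells of WT + WT gastruloids, and Tfap2b at 144 h (0.78) against those of the same gastruloids. Against WT–mCherry mES cells 2 genes passed, against none with WT–emiRFP mES cells. The cause was not tested in these cases. Foxd3 was too low to test, as were, in the fits of single times, Tfap2b before 144 h, Pax3 at 0 and 48 h and Sox9 at 0 h, and Sox10 rests on 9 to 70 counts a library.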
